A study of Drosophila melanogaster with 14 samples.

Results

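Cytochrome P450 genes of the Drosophila melanogaster head were followed in RNA from whole heads and in RNA recovered from fixed heads through a tagged poly(A)-binding protein. The genes were taken from the gene table of the array by symbol, as those beginning with Cyp and a digit, with Cyp4d21 left out. Each gene was represented by its probe set with the highest mean over all 14 arrays. This gave 82 genes out of 10843 with a probe set of their own, and all 82 matched the RefSeq gene table by gene identifier. Of these, 80 encode P450 enzymes of 20 families, named by the number after Cyp. The other 2, Cyp1 and Cyp40, encode cyclophilins, which are peptidyl-prolyl isomerases and share only the letters of the symbol, so they were kept apart. The label of a P450 group therefore fits 80 of the 82 genes.

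The study compared 3 groups of single-colour Affymetrix arrays. IP (n = 4) was RNA eluted from anti-FLAG beads, starting from about 200 pooled heads per sample that had been fixed in 1% formaldehyde for 30 min and sonicated; the labels call it photoreceptor cells R1-R6. Rh1 heads (n = 4) were whole heads taken to be of the same genotype, described as Rh1-GAL4/P{UAS-hPABP-FLAG}, about 100 per sample, extracted with Trizol. CS heads (n = 6) came from the wild-type strain Canton-S, without driver or transgene, with about 100 whole heads per sample. The Rh1 promoter drives GAL4 in the outer photoreceptors R1 to R6, so the FLAG-tagged poly(A)-binding protein, which coats messenger RNA tails, is meant to be made there alone. The labels give the transgene as both dPABP and hPABP, and this was not settled here. The labels used here give no age, sex or strain background of the transgenic flies, and an immunoprecipitate from flies without the tagged protein was not analysed here. The labels do not say whether replicates are separate collections of flies. The p-values therefore reflect the spread of these samples alone, perhaps a technical one, and so few arrays limit the precision.

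P450 enzymes are heme proteins that use molecular oxygen to hydroxylate or otherwise oxidise small lipophilic molecules. Most insect P450s sit in the endoplasmic reticulum and take electrons from cytochrome P450 reductase, while those of the mitochondrial clan take them from adrenodoxin-like ferredoxins. Some make or clear hormones and cuticular lipids, and many others, above all in families 4, 6, 9, 12 and 28, are known or thought to detoxify plant compounds and insecticides. In the fly, much of this detoxification takes place in the fat body, the midgut and the Malpighian tubules, and the head holds fat body tissue of its own. No sequence of these genes or their probes was in the sources used here, so none is shown.

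The 80 genes fell into 4 clans of related families. The CYP3 clan (families 6, 9, 28, 308, 309, 310 and 317) held 37 genes, the CYP4 clan (families 4, 311, 312, 313, 316 and 318) held 31, the mitochondrial clan (families 12, 49 and 301) held 8 and the CYP2 clan (families 18, 303, 304 and 305) held 4. Family 6 was the largest with 23 genes, followed by family 4 with 21, and 13 families had a single gene. A gene was tested where its average log2 value over the 14 arrays was at or above the 30th percentile, which is a scaled signal of about 109.7. That kept 58 P450 genes and left out 22, at 20 of 23 in family 6, 15 of 21 in family 4, 5 of 6 in family 12, 4 of 5 in family 9, 3 of 4 in family 28, 3 of 6 in family 313 and both genes of family 309. Families 18, 49, 305, 308, 311 and 317 were tested through their single gene, and the single genes of families 301, 303, 304, 310, 312, 316 and 318 fell below the filter.

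**Figure D1:**
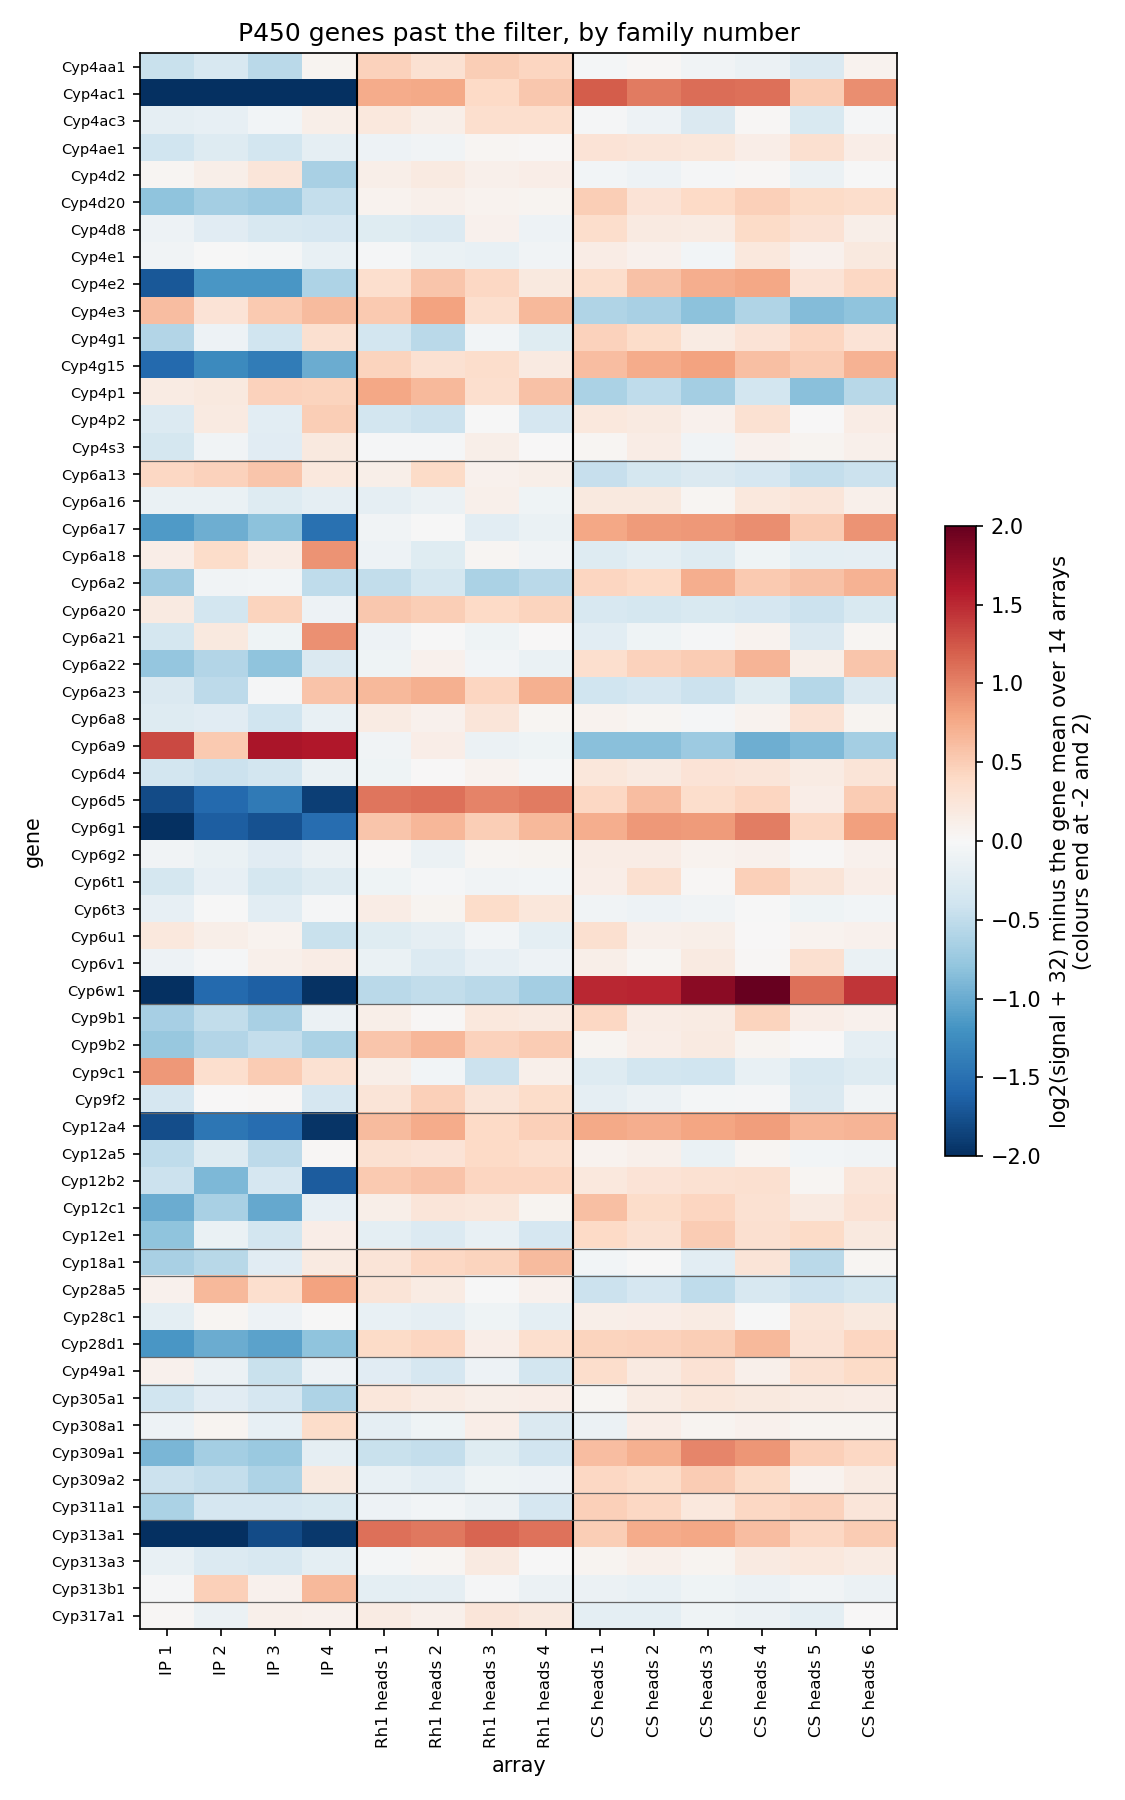
Log2 scaled signal of each P450 gene past the filter, relative to its own mean over the 14 arrays, with the IP, Rh1 head and CS head arrays from left to right and genes grouped by family. Colour shows the difference on the log2(signal + 32) scale; families 6 and 4 take up most rows, and genes such as Cyp313a1, Cyp6d5 and Cyp4ac1 are low in all 4 IP arrays.

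Before the results, some facts of the arrays bear on all of them. The IP arrays were less alike than the head arrays: log2 values correlated across probe sets at 0.909 to 0.985 in IP, 0.990 to 0.996 in Rh1 heads and 0.988 to 0.996 in CS heads. The median SD of the 58 P450 genes was 0.23 on the log2 scale in IP, 0.09 in Rh1 heads and 0.11 in CS heads. The ratio of 5′ to 3′ probe signal for eIF-4a, a measure of RNA integrity, was 0.531, 0.0284, 0.209 and 0.0432 in IP replicates 1 to 4, against 0.604 to 0.678 in Rh1 heads and 0.444 to 0.593 in CS heads. The same ratio was 0.0093 to 0.202 in IP, 0.405 to 0.468 in Rh1 heads and 0.291 to 0.541 in CS heads for GAPDH. For actin it was 0.0167 to 0.135 in IP, 0.421 to 0.513 in Rh1 heads and 0.317 to 0.394 in CS heads. Every IP array was thus below every head array for GAPDH and actin. IP replicates 2 and 4 had the lowest values of all 3 ratios, and counts are also given without them, which does not remove this difference.

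The label of IP as photoreceptor RNA was set beside 14 photoreceptor markers, which include trp, trpl, inaD, Arr2 and the regulators Pph13 and gl. In IP against Rh1 heads 12 of the 14 rose, 0 fell and 2 (Arr1 and eys) did not pass, while 21.8% of all probe sets tested were called higher and 25.6% lower. Their summed signal was 44044 to 71908 in IP, 21248 to 22227 in Rh1 heads and 58908 to 64886 in CS heads. Rh1 heads were thus low in these markers, with 12 of 14 lower, 1 higher (prom) and 1 not passing against CS heads, where 29.7% of all probe sets were called lower and 24.4% higher. The rises in IP are thus measured from a low reference, and the summed signal in IP overlapped with that in CS heads. The markers were also chosen with earlier results of these data known, so these counts do not settle the label. No marker was at 0 in this or any other list.

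Markers of other head tissues were mostly lower in IP, where 25.6% of all probe sets were called lower and 21.8% higher. Of the tested fat body markers 7 of 10 were lower and 1 was higher, with a summed signal of 14041 to 26681 in IP, 92233 to 102114 in Rh1 heads and 108209 to 123087 in CS heads. All 9 muscle markers tested were lower (summed signal 5570.1 to 7510 in IP, 36209 to 39976 in Rh1 heads and 28037 to 44907 in CS heads). Lower too were 5 of 9 glial markers, with 2 higher (7541 to 12623 in IP, 16269 to 17960 in Rh1 heads), 7 of 8 markers of other neurons (2301 to 4449 in IP, 7470.5 to 8486 in Rh1 heads) and 4 of 4 hemocyte markers (1007 to 1633 in IP, 3496 to 3757 in Rh1 heads). The antennal list had 3 of 6 lower (3864 to 5944 in IP, 21947 to 23632 in Rh1 heads) and the oenocyte and hydrocarbon list 2 of 5 (2941 to 4430.2 in IP, 8231 to 10053 in Rh1 heads), with 0 higher in each. The part of these tissues in the P450 results was not tested. In such bulk samples, fewer cells of a type and less RNA per cell cannot be told apart.

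Setting IP against Rh1 heads asked which P450 transcripts were over- or under-represented in the RNA bound to the tagged protein. Most P450 genes that passed the test were lower in IP. Of the 58 tested, 29 fell, which is 50.0% of them, while 25.6% of all 9776 probe sets tested were called lower. Only 4 rose, or 6.90%, while 21.8% of all probe sets were called higher, and 25 did not pass, so that 56.9% were called in either direction against 47.4% of all probe sets. The median log2 fold over the 58 genes was -0.27, and over all probe sets tested 0.01. A fall of at least 2-fold on the log2(signal + 32) scale was seen for 11 genes, 19.0% of the 58, against a background of 9.00%. A rise of that size was seen for 1 gene, Cyp6a9, against a background of 7.00%. All 4 IP arrays lay below all 4 Rh1 head arrays for 28 of the genes and above them for 4. These 32 are 55.2% of the genes, against 46.6% of all probe sets (25.7% below and 20.9% above). Without IP replicates 2 and 4, 34 P450 genes were lower and 5 higher in limma's test. Calls grew over the whole array too, from 4630 to 5470 of the 9776 probe sets, with 43.1% of the 5470 higher. The larger P450 count is therefore not read as a firmer depletion. Leaving out 1 array at a time gave 24 to 33 lower and 2 to 6 higher P450 genes. The count of rises was 2 without IP replicate 2 and without each of the 4 Rh1 head arrays. Fixation, sonication and bead recovery were done for IP alone, and what these steps did cannot be told apart from what the tagged protein bound.

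**Figure D2:**
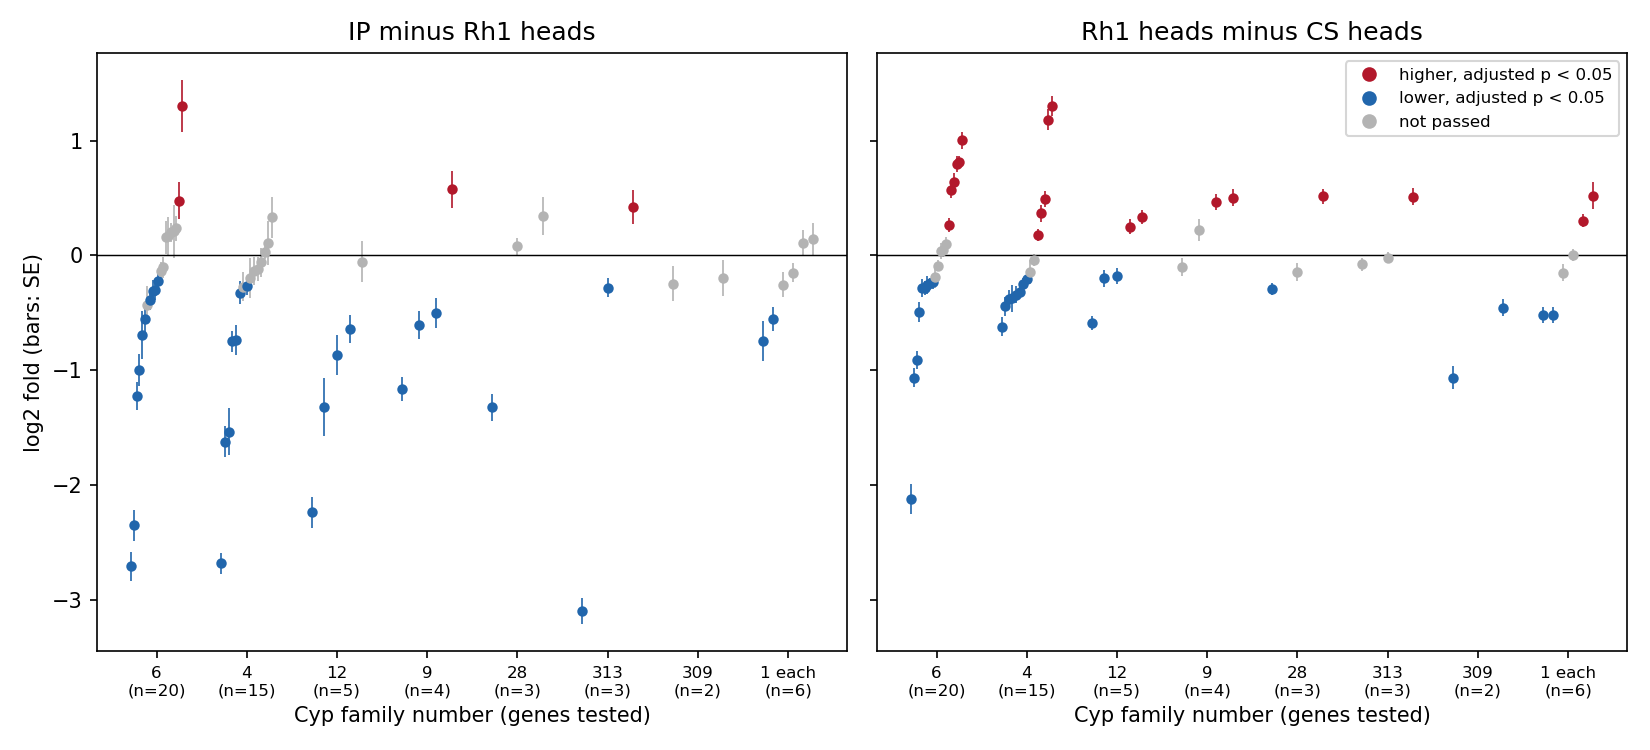
Log2 fold of every P450 gene past the filter, by family, in IP against Rh1 heads and in Rh1 heads against CS heads, with the 6 families of 1 tested gene drawn together. Each point is a gene with its standard error as a bar, coloured by its call at adjusted p under 0.05; in IP against Rh1 heads most called genes lie below 0, and in Rh1 heads against CS heads they lie on both sides.

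By family, calls in IP are given beside the 25.6% of all probe sets called lower and the 21.8% called higher. Falls were found in families 4, 6, 9, 12 and 28, among others. Family 6 had 10 lower, 2 higher and 8 not passing, with a median log2 fold of -0.26. Family 4 had 7 lower, 0 higher and 8 not passing, with a median of -0.27. In family 12, mitochondrial enzymes, 4 of 5 tested genes fell (median -0.87), and in family 9, 3 of 4 fell and 1 rose (median -0.56). The falls of family 9 include Cyp9b2, whose dimmer probe set did not pass. Family 28 had 1 lower of 3 tested, family 313 had 2 lower and 1 higher of 3, and neither gene of family 309 passed. By clan, 14 of 31 tested genes of the CYP3 clan fell and 3 rose, 9 of 19 of the CYP4 clan fell and 1 rose, 4 of 6 of the mitochondrial clan fell, and both of the CYP2 clan fell. These families were not tested against each other. Most hold few tested genes, so no difference of a single family from the shares of all probe sets is read.

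The largest fall belonged to Cyp313a1, a CYP4 clan gene. Its signal was 519.9, 488, 642 and 585 in the IP arrays, against 5020.1, 4809, 5229.7 and 4965 in Rh1 heads. The groups lay far apart, with a log2 fold of -3.10 (SE 0.12, limma adjusted p = 1.58e-07). Cyp6d5, of family 6, had 481, 576, 635 and 448 in IP and 3706, 3772, 3500.03 and 3628 in Rh1 heads. Its log2 fold was -2.71 (SE 0.13, limma adjusted p = 4.49e-07), and no IP array came near a head array. Cyp4ac1 was the dimmest of the strongly depleted genes in IP, close to the low end of the array, and passed the filter through its head signal. It had 21.1, 20.3, 24.4 and 24.4 in IP and 353, 357, 270.3 and 302 in Rh1 heads. On the log2(signal + 32) scale, which understates the change of such low signals, this was -2.69 (SE 0.09, limma adjusted p = 1.16e-07), and the ratio of mean signals was 0.0704.

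Several genes tied to insecticide resistance were among the falls, but not all of them. Cyp6a2, linked to DDT resistance, and Cyp4e3, known from permethrin tolerance, did not pass (log2 folds 0.17 and -0.06). Cyp6g1, whose overexpression confers resistance to DDT and neonicotinoids, had 187, 279, 259 and 305 in IP and 1389, 1512, 1335 and 1479.8 in Rh1 heads. Every IP array was below every Rh1 head array, and the log2 fold was -2.35 (SE 0.14, limma adjusted p = 1.36e-06). Cyp12a4, a mitochondrial P450 linked to lufenuron resistance, had 106, 141, 132 and 89.1 in IP and 696, 760.3, 593 and 626 in Rh1 heads (log2 fold -2.24, SE 0.13). For Cyp28d1, linked to nicotine resistance, the signals were 605, 687, 646 and 778 in IP and 1829, 1878, 1520.2 and 1754 in Rh1 heads (log2 fold -1.32, SE 0.12). Neither gene's IP arrays overlapped with its head arrays. In family 4, Cyp4g15, a relative of Cyp4g1 known from the nervous system, had 334, 417, 378 and 510.4 in IP and 1439, 1299.98, 1347 and 1188 in Rh1 heads (log2 fold -1.62, SE 0.13). Cyp4e2 had 328, 487, 488 and 727 in IP and 1443, 1670.1, 1521 and 1303 in Rh1 heads (log2 fold -1.54, SE 0.20). Both were lower in all IP arrays. The other falls of at least 2-fold, named here after their values were seen where the naming rule did not give them, were Cyp12b2 (-1.32), Cyp6w1 (-1.23) and Cyp9b2 (-1.16). A dimmer probe set of Cyp9b2 did not pass (0.04, limma adjusted p = 0.824), so its fall rests on the brighter probe set alone.

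**Figure D3:**
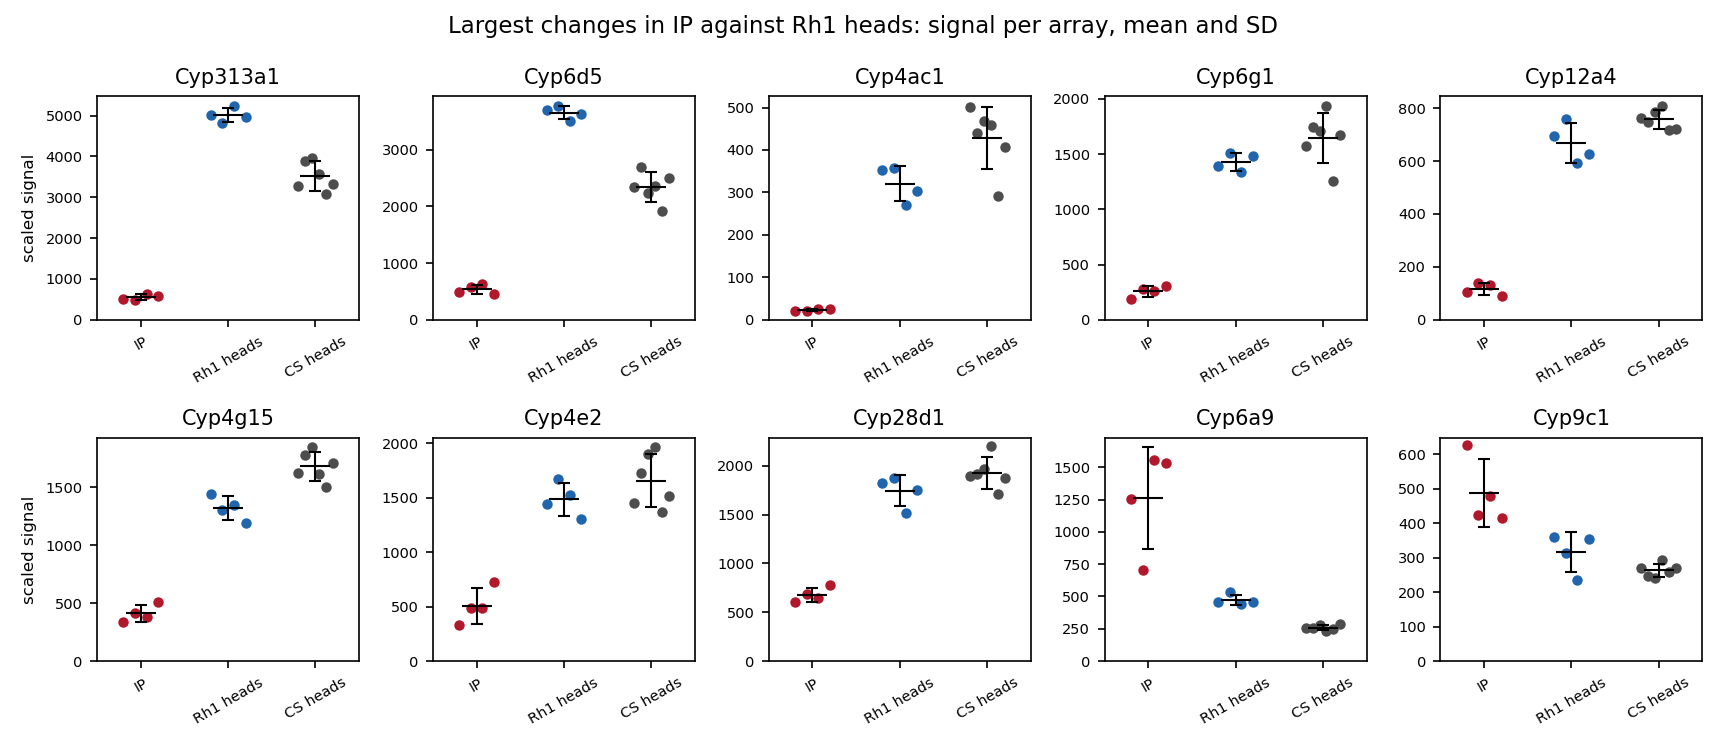
Scaled signal per array of the P450 genes with the largest changes in IP against Rh1 heads, with CS heads for comparison; points are arrays, lines are group means and bars 1 SD (IP n = 4, Rh1 heads n = 4, CS heads n = 6), on linear axes from 0. For Cyp313a1 the 4 IP arrays lie between 488 and 642 and the 4 Rh1 head arrays between 4809 and 5230; Cyp6a9 is higher in every IP array than in any head array.

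The 4 rises were led by Cyp6a9, of family 6. Its signal was 1252, 706, 1556 and 1534 in IP, against 459, 533, 444 and 453 in Rh1 heads. IP replicate 2 was the lowest of its group but still above all head arrays, and the log2 fold was 1.30 (SE 0.23, limma adjusted p = 0.00122). The rise passed under all 21 alternatives run for this comparison, with log2 folds of 1.18 to 2.10. Cyp9c1 had 628, 422, 479.96 and 415 in IP and 359, 314, 235 and 354 in Rh1 heads (log2 fold 0.58, SE 0.16, limma adjusted p = 0.0168). Cyp6a18 had 219.8, 263, 220.3 and 393 in IP and 181, 162, 203 and 185 in Rh1 heads (log2 fold 0.48, limma adjusted p = 0.0379). The call for Cyp6a18 was lost without IP replicate 2 and without each Rh1 head array in turn, at adjusted p of 0.0526 to 0.102 in limma, and that for Cyp9c1 was lost without scaling, at 0.0535. The remaining rise, Cyp313b1, named after its values were seen, had a log2 fold of 0.42 and IP arrays (159, 239.7, 175 and 274) that overlapped with those of Rh1 heads (138, 141, 159.8 and 148).

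Other genes with known roles gave a mixed picture in IP. Cyp18a1, which inactivates ecdysteroid hormones, had 93.2, 102, 136 and 191 in IP and 203, 231, 235 and 271 in Rh1 heads (log2 fold -0.75, SE 0.17, limma adjusted p = 0.00619). This fall did not pass with CS heads in place of Rh1 heads (log2 fold -0.23, limma adjusted p = 0.289). Cyp6a17, needed for normal temperature preference, had 149.7, 171, 193 and 109.8 in IP and 348, 362, 313 and 330.2 in Rh1 heads (log2 fold -0.998, SE 0.14), with no overlap. Cyp6a20, which affects aggression and is made in support cells of olfactory sensilla, had 699, 469, 843 and 569 in IP and 904, 880.2, 822 and 847 in Rh1 heads. Its log2 fold of -0.43 just missed the threshold (limma adjusted p = 0.0527), and 1 IP array lay within the range of Rh1 heads. Cyp4g1, the oenocyte enzyme that makes cuticular hydrocarbons by oxidative decarbonylation, had 98.1, 149.8, 115 and 212 in IP and 119, 102, 156 and 133 in Rh1 heads. These groups overlapped, with a log2 fold of 0.11 (SE 0.19, limma adjusted p = 0.659). The phenobarbital-inducible Cyp6a2 and Cyp6a8 differed in outcome: Cyp6a2 did not pass (0.17, SE 0.16) and Cyp6a8 fell (-0.39, SE 0.09), a difference between genes that was not itself tested. Of the remaining single-gene families, Cyp305a1 fell (-0.55, SE 0.10), and the log2 folds were 0.11 for Cyp49a1, 0.15 for Cyp308a1, -0.25 for Cyp311a1 and -0.15 for Cyp317a1, none of which passed. Cyp6d4 fell (-0.31, limma adjusted p = 0.0184), a call that was lost without Rh1 head replicate 3 (0.0516), and Cyp12e1 (-0.05), Cyp309a1 (-0.25), Cyp6a13 (0.23) and Cyp4e3 (-0.06) did not pass.

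Setting Rh1 heads against CS heads compared flies with driver and transgene with the wild type, and both were extracted in the same way. P450 genes changed in both directions. Of the 58 tested, 19 rose (32.8%, against 24.4% of all probe sets) and 25 fell (43.1%, against 29.7%), while 14 did not pass. In either direction 75.9% were called, against 54.1% of all probe sets. The median absolute log2 fold was 0.33 for the P450 genes and 0.18 for all probe sets tested, and the signed medians were -0.12 and -0.03. Changes of at least 2-fold were seen for 3 genes in each direction, 5.17% of the 58, against backgrounds of 0.716% for rises and 0.696% for falls. All arrays of Rh1 heads lay above all of CS heads for 19 genes and below them for another 19, together 65.5% of the genes, against 38.8% of all probe sets (18.2% above and 20.6% below). Leaving out 1 array at a time gave 19 to 20 rises and 23 to 26 falls. All arrays of the transgenic flies carry another title prefix than those of Canton-S, and its meaning is not stated. Strain background, driver, transgene and whatever that prefix marks cannot be told apart in this comparison.

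Markers of head tissues are given here against the 54.1% of all probe sets that were called in this comparison, 29.7% lower and 24.4% higher. Beside the fall of photoreceptor markers, 6 of 10 fat body markers were lower in Rh1 heads and 0 higher. Of the oenocyte and hydrocarbon list 2 of 5 were lower and 1 higher, of muscle 0 of 9 lower and 2 higher, and of glia 1 of 9 lower and 3 higher. Other neurons had 1 of 8 lower and 2 higher, the antennal list 2 of 6 lower and 2 higher, and hemocytes 0 of 4 lower and 1 higher. The shares called in muscle, glia, other neurons and hemocytes were below that of all probe sets. The part of these tissues in the P450 changes was not tested.

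Calls by family are given beside the 24.4% of all probe sets called higher and the 29.7% called lower. Family 6 had 6 higher, 9 lower and 5 not passing, and family 4 had 5 higher, 8 lower and 2 not passing. All 5 tested genes of family 12 were called, 2 higher and 3 lower. Among these falls, that of Cyp12a4 was narrow (-0.18, limma adjusted p = 0.0465), with arrays that overlapped. Its call was lost under 11 of the 22 alternatives. Both genes of family 309 fell, and 2 of 4 genes of family 9 rose with 0 lower. These rises include Cyp9b2, whose dimmer probe set did not pass (0.14, limma adjusted p = 0.0922). In family 28, 1 rose and 1 fell of 3, and in family 313, 1 rose of 3, which was Cyp313a1. Among the 11 tested Cyp6a genes 4 rose and 4 fell. With calls this common over all probe sets and so few genes, nothing about close relatives is read from such counts. Cyp4p1, Cyp6d5 and Cyp12a5 rose, while Cyp4p2, Cyp6d4 and Cyp12a4 of the same subfamilies fell, pairs picked after their values were seen. The pair with Cyp12a4 rests on its narrow fall and is uncertain.

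The largest fall among the 58 tested genes was that of Cyp6w1, of family 6. Its signal was 1020.2, 1060.1, 1015 and 927 in Rh1 heads, and in CS heads it ranged between 3265 and 6143 with a median of 4347. The groups were well apart, with a log2 fold of -2.13 (SE 0.13, limma adjusted p = 2.88e-08), although CS heads spread widely. In IP the same gene was lower again than in Rh1 heads, at 354, 488, 462 and 358. Cyp6a2, the phenobarbital-inducible gene also linked to DDT resistance, had 1126, 1247, 1019 and 1092 in Rh1 heads and ranged between 2115 and 2665 with a median of 2374 in CS heads. The log2 fold was -1.07 (SE 0.08, limma adjusted p = 1.83e-07), with no overlap. Cyp309a1 had 185, 180.2, 219 and 195 in Rh1 heads and ranged between 362 and 547 with a median of 436 in CS heads, a log2 fold of -1.07 (SE 0.10). Its IP arrays, at 124, 152, 145 and 229, overlapped with those of Rh1 heads.

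The largest rise among the 58 tested genes was that of Cyp4e3, which is known from permethrin tolerance in Malpighian tubules. It had 379, 472, 329 and 416 in Rh1 heads and ranged between 125 and 157 with a median of 142 in CS heads, a log2 fold of 1.30 (SE 0.09, limma adjusted p = 5.70e-08). Its 4 IP arrays, at 410.1, 314, 381 and 414, lay within or just below the range of Rh1 heads and above all CS heads. Cyp4p1 followed with 1222, 1119, 894 and 1067 in Rh1 heads, while CS heads ranged between 378 and 535 with a median of 455. Its log2 fold was 1.18 (SE 0.09), and IP (786, 805, 978 and 966) lay near Rh1 heads, with a log2 fold between them that did not pass (-0.27, limma adjusted p = 0.11). Cyp6a23, the remaining rise of at least 2-fold, is given with its chromosomal neighbours.

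**Figure D4:**
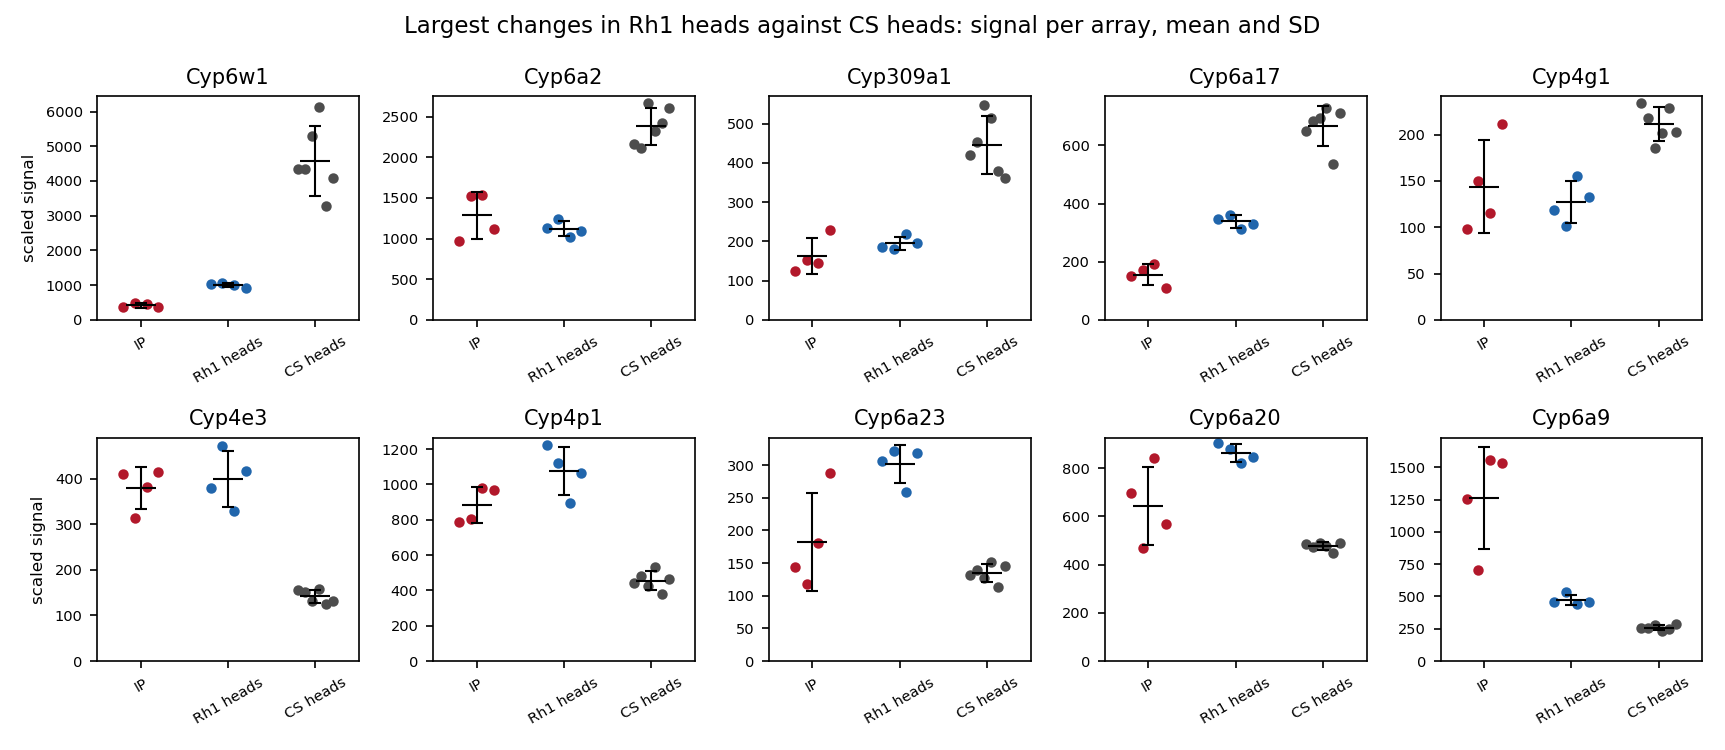
Scaled signal per array of the P450 genes with the largest changes in Rh1 heads against CS heads, with IP drawn at the left; points are arrays, lines are group means and bars 1 SD (IP n = 4, Rh1 heads n = 4, CS heads n = 6), on linear axes from 0. The top row holds falls, led by Cyp6w1, and the bottom row rises, led by Cyp4e3, and in each panel the Rh1 head arrays lie apart from the CS head arrays.

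Smaller changes included genes of lipid and hormone metabolism. Cyp4g1 had 119, 102, 156 and 133 in Rh1 heads and ranged between 185 and 234 with a median of 210.5 in CS heads, a log2 fold of -0.62 (SE 0.09, limma adjusted p = 4.24e-05). Its relative Cyp4g15 also fell (-0.34, SE 0.07). Cyp311a1, an enzyme of lipid metabolism in the midgut, had 305, 317, 301 and 256 in Rh1 heads and ranged between 387 and 473 with a median of 449.7 in CS heads, a log2 fold of -0.52 (SE 0.07). Cyp18a1 went the other way, with 203.42, 231, 235 and 271 in Rh1 heads and a range between 103 and 203.18 with a median of 161 in CS heads, so that both groups nearly met, and a log2 fold of 0.52 (SE 0.12, limma adjusted p = 0.00234). In the mitochondrial clan, Cyp12e1 (-0.59, SE 0.06) and Cyp49a1 (-0.52, SE 0.07) fell. Cyp313a1 and Cyp6d5, both strongly depleted in IP, rose. Cyp313a1 ranged between 3074 and 3968 with a median of 3444 in CS heads (log2 fold 0.51, SE 0.07), and Cyp6d5 ranged between 1922 and 2687 with a median of 2349.9 there (log2 fold 0.64, SE 0.08). Cyp6a13 also rose (0.57, SE 0.07). Cyp317a1 rose (0.30, SE 0.06) and Cyp6d4 fell (-0.24, SE 0.05). The resistance genes Cyp6g1 (-0.19, limma adjusted p = 0.104) and Cyp28d1 (-0.14, limma adjusted p = 0.13) did not pass, and neither did Cyp6a8 (0.05), Cyp4e2 (-0.15), Cyp305a1 (0.01), Cyp308a1 (-0.15), Cyp6a18 (0.10) or Cyp9c1 (0.22). Cyp4ac1 (-0.37, limma adjusted p = 0.0169) and Cyp12a4 (-0.18, limma adjusted p = 0.0465) fell narrowly. The call for Cyp12a4 was lost under 11 of the 22 alternatives, among them leaving out any of CS head replicates 1 to 4 or Rh1 head replicates 1, 3 or 4 (limma adjusted p 0.0556 to 0.153 without 1 array), and that for Cyp4ac1 without Rh1 head replicate 3 (0.061).

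Many P450 genes of the fly lie side by side, and 41 of the 80 had another of them as next protein-coding gene in RefSeq's annotation, in 14 runs. The longest run held 9 genes, in the order Cyp6a22, Cyp6a17, Cyp6a23, Cyp6a19, Cyp6a9, Cyp6a20, Cyp6a21, Cyp6a8 and Cyp317a1, of which Cyp6a19 was below the filter. Some neighbours in it changed in opposite directions in Rh1 heads against CS heads, where 24.4% of all probe sets were called higher and 29.7% lower. With calls this common, nothing about the run as a whole is read. Cyp6a17 had 348, 362, 313 and 330.2 in Rh1 heads and ranged between 535 and 728 with a median of 689 in CS heads, a log2 fold of -0.91 (SE 0.08, limma adjusted p = 6.80e-07). Next to it, Cyp6a23 had 307, 322, 259 and 319 in Rh1 heads and ranged between 113 and 151 with a median of 135 in CS heads, a log2 fold of 1.00 (SE 0.07, limma adjusted p = 1.48e-07). Neither gene's Rh1 head arrays overlapped with its CS head arrays. Beyond them, Cyp6a9 and Cyp6a20 were higher and Cyp6a22 was lower, and Cyp6a21 (0.04) and Cyp6a8 (0.05) did not pass. Cyp6a20 had 904, 880.2, 822 and 847 in Rh1 heads and ranged between 449 and 491 with a median of 481 in CS heads, a log2 fold of 0.81 (SE 0.05). Cyp6a9, at 0.80 (SE 0.07), ranged between 229 and 288 with a median of 255 in CS heads.

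In IP against Rh1 heads the same run gave 1 rise (Cyp6a9), 4 falls (Cyp6a22, Cyp6a17, Cyp6a23 and Cyp6a8) and 3 genes that did not pass. Of all probe sets, 21.8% were called higher and 25.6% lower, and with so few genes no difference from these shares is read. Cyp6a23 had 144, 118, 180.4 and 288 in IP, where replicate 4 reached into the range of Rh1 heads. Its log2 fold of -0.69 (limma adjusted p = 0.0215) no longer passed without IP replicate 2 or without Rh1 head replicate 1, 2 or 4, at adjusted p of 0.0528 to 0.0574. Genes of this run are close relatives, and binding of 1 gene's RNA to another's probes was not tested.

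**Figure D5:**
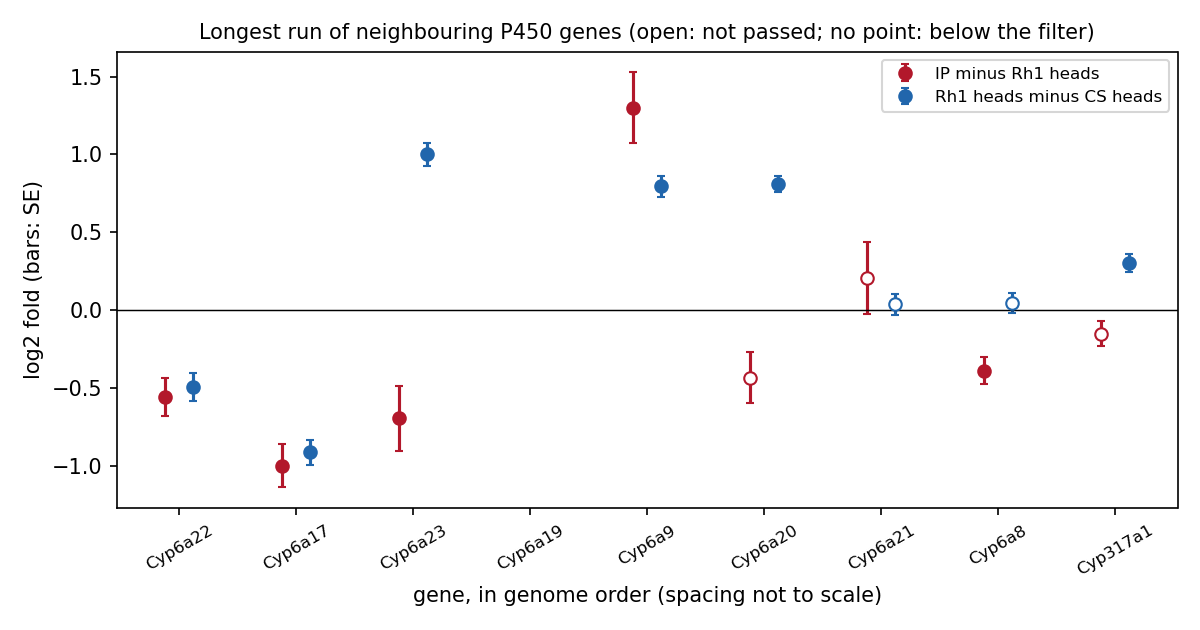
Log2 fold of the genes of the longest run of neighbouring P450 genes, in their order along the chromosome, in IP against Rh1 heads and in Rh1 heads against CS heads; bars show the standard error of the fold. Cyp6a17 and Cyp6a23 stand next to each other at -0.91 and 1.00 in Rh1 heads against CS heads, and Cyp6a9 is the only gene of the run called higher in both comparisons.

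Both comparisons use the same Rh1 head arrays, so their calls are given side by side and not as a relation. The share of all probe sets in each combination was not computed, so nothing about P450 genes is read from these counts. Of the 58 genes, 11 were lower in IP than in Rh1 heads and also lower in Rh1 heads than in CS heads. Another 11 were lower in IP and higher in Rh1 heads than in CS heads, and 7 were lower in IP with no call in Rh1 heads. Of the 4 genes higher in IP, Cyp6a9 was also higher in Rh1 heads and 3 had no call there. Among genes with no call in IP, 7 were higher and 14 lower in Rh1 heads, and 4 passed in neither comparison. Cyp313a1 and Cyp6d5 were in the group lower in IP and higher in Rh1 heads, and Cyp6w1 and Cyp6a17 in the group lower in both.

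The 22 P450 genes below the filter had group means of 16.5 to 143 in IP, 20.1 to 269 in Rh1 heads and 20.8 to 113 in CS heads. With no filter, limma called 1 of them higher and 4 lower in IP against Rh1 heads (19.4% and 20.8% of all 13966 probe sets). In Rh1 heads against CS heads it called 5 higher and 5 lower (22.4% and 26.0% of all). Cyp12d1-d, a mitochondrial clan gene linked to DDT resistance and induced by caffeine, differed the most between Rh1 heads and CS heads. It had 91.0, 168, 91.4 and 224 in IP and 270.4, 268, 258 and 279 in Rh1 heads, and it ranged between 32.4 and 40.3 with a median of 36.3 in CS heads. Rh1 heads were above all CS heads, with a log2 fold of 2.14 (limma adjusted p = 1.62e-13 with no filter), and IP lay below Rh1 heads at -0.85 (0.0122). Its near-identical copy Cyp12d1-p had no probe set of its own here, so RNA of the copies cannot be told apart here and it is uncertain which gene the value stands for. Cyp301a1, needed for cuticle formation, averaged 53.3 ± 2.74 in IP, 69.5 ± 4.30 in Rh1 heads and 60.3 ± 3.85 in CS heads (SD, n = 4, 4 and 6). Cyp303a1, needed for external sensory organs, averaged 71.8 ± 11.6, 65.1 ± 6.35 and 84.2 ± 5.65 in the same groups, and Cyp310a1, known to affect Wnt signalling, 89.9 ± 15.0, 101 ± 21.6 and 113 ± 22.6.

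Genes that work with P450s were read from lists of pathway partners, beside 47.4% of all probe sets called in IP against Rh1 heads and 54.1% in Rh1 heads against CS heads. Of the list of electron donors, 4 genes were tested, and Cpr, the reductase itself, was not analysed here. The list includes Cyt-b5-r, which encodes a cytochrome b5-related protein, and whether that protein donates electrons to P450s was not examined. In IP 1 rose and 2 fell: the mitochondrial ferredoxins Fdx1 (0.35) and Fdx2 (-0.89) went opposite ways, and Cyt-b5-r fell by 3.90 on the log2 scale. The fall of Cyt-b5-r is therefore not read as a fall of a P450 electron donor. Cyt-b5 did not pass (-0.19). Against CS heads, Fdx2 was lower in Rh1 heads (-0.35) and the other 3 did not pass. Of 6 genes of heme synthesis, 0 passed in IP in limma's test (1 at an unadjusted p under 0.05), and in Rh1 heads Pbgs rose (0.17) and Alas, the first enzyme of the pathway, fell (-0.29). Of 6 regulators of the response to foreign compounds and hormones, the bZIP partner maf-S (1.57) and the nuclear receptor usp (1.00) were higher in IP, and cnc (-0.30), the fly counterpart of Nrf2, and tgo (-0.76), the partner of bHLH-PAS proteins, were lower. Rh1 heads had Keap1, the inhibitor of cnc, at 0.44, maf-S at 0.31 and tgo at 0.28 above CS heads, and cnc at -0.34. These 4 calls of 6 in each comparison are above the shares of all probe sets, 47.4% and 54.1%. With only 6 genes, no difference from those shares is read. Of the ecdysteroid genes, 2 were tested, and both encode P450s named without the Cyp prefix: dib fell in IP (-0.38), and sad rose in Rh1 heads (0.17).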

How the data were processed

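The deposited table held linear intensity values of 14010 probe sets on each of the 14 arrays. How probes were combined and scaled is not given in the sources used here. Trimmed means (2% off each end) of the deposited columns ran from 310.2 to 373.4, a spread above the 5% tolerance, and all arrays were brought to the mean of these. Values were log2(signal + 32), so folds understate changes of low signals. The 9776 probe sets with a mean at or above the 30th percentile were tested. The arrays of both groups of a comparison, and no others, were fitted with lmFit and eBayes (trend on) of limma 3.58.1 in R 4.3.3. Tests were two-sided, p-values were adjusted by Benjamini-Hochberg over all probe sets tested, and the threshold was 0.05. Lists are described by counts, read against the share of all probe sets called, and no list was tested. Of the P450 genes, 4 had more than 1 probe set and were represented by the brightest. The fits were tested on simulated data.

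The members and lists were chosen with earlier results of these data known. Genes named with values were, in each comparison, the 8 largest rises and 8 largest falls among called genes without overlap between arrays, genes with a chosen known role, the gene of any family with 1 gene tested, and list members with large folds. This gave 34 P450 genes, 30 of them past the filter, and others are said to be chosen after their values were seen or belong to the run of neighbours. IP replicates were numbered in accession order and pair nothing. The shared numbers of both head groups did not pair them: deviations of same-numbered arrays correlated at -0.08, -0.04, -0.11 and 0.10. The alternatives changed the pseudocount, filter, scaling, array weights or eBayes trend, fitted all 14 arrays together, left out arrays, set IP against CS heads, added a replicate block or averaged a gene's probe sets. Gene names and neighbours came from the RefSeq table of assembly Release 6, without coordinates, since the arrays name no build. Plots were made with Python 3.11.15 and matplotlib 3.10.9.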

Additional observations from a re-analysis of the deposited data

Results flagged for a closer look

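For the 34 P450 genes named by the rule, 102 groups of arrays were examined, and the other P450 genes were not. In 5 of these groups 1 array stood far from the others, with a gap that took up most of the group's range. Chance alone gives this in about 1 group in 20. Cyp311a1 had 201.74 in IP replicate 1, against 252.97 to 261.34 in the other IP arrays. Cyp6a13 had 299.02 in Rh1 head replicate 2, against 236.75 to 244.03 in the other Rh1 heads. In CS heads, Cyp308a1 had 261.21 in replicate 1 against 298.35 to 319.52 in the others, Cyp6a8 had 288.76 in replicate 5 against 225.55 to 243.86, and Cyp303a1, a gene below the filter, had 73.32 in replicate 4 against 83.07 to 88.28.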

How the results depend on the processing

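In IP against Rh1 heads, P450 genes were counted as 29 lower and 4 higher. A filter at the 50th percentile, which leaves 38 P450 genes, gave 19 and 2. Array weights gave 9 higher, with 3810 of all probe sets lower, and CS heads as reference also gave 9 higher. The causes were not tested beyond the smaller number of genes tested. Leaving out 1 array gave 24 to 33 lower and 2 to 6 higher P450 genes, and 2131 to 2944 lower and 1642 to 2443 higher probe sets. With CS heads as reference the sign turned for Cyp49a1 (-0.411), Cyp4e3 (1.239), Cyp4g1 (-0.512), Cyp4p1 (0.911), Cyp6a2 (-0.897), Cyp6a20 (0.378) and Cyp6a23 (0.308, limma adjusted p = 0.142), and for Cyp308a1 (-0.005) and Cyp317a1 (0.155), which did not pass either way. Of these 9, only Cyp6a23 had passed against Rh1 heads. Of the 18 called genes among the 30 tested by name, 13 passed under every alternative run. The 5 lost under at least 1 were Cyp18a1, Cyp6a18, Cyp6a23, Cyp6d4 and Cyp9c1, and Cyp6d4 was lost without Rh1 head replicate 3 alone (limma adjusted p = 0.0516).

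In Rh1 heads against CS heads, P450 genes were counted as 19 higher and 25 lower. The 50th percentile filter gave 12 and 15. A fit of all 14 arrays gave 1301 higher and 1712 lower probe sets, and the cause was not tested. Leaving out 1 array gave 19 to 20 higher and 23 to 26 lower P450 genes, and 2089 to 2397 higher and 2513 to 3087 lower probe sets. The replicate block, for which CS head replicates 5 and 6 were dropped, again gave 19 higher and 25 lower. It ended the call of Cyp12a4 (-0.21, limma adjusted p = 0.0583) and added Cyp6g1 (-0.28, 0.01) and Cyp9c1 (0.22, 0.0311). Of 22 called genes by name, 20 passed under every alternative run, and Cyp12a4 and Cyp4ac1 did not. Scaling moved the median of all probe sets by less than 0.1 on the log2 scale. Genes below the filter are low on average over the 14 arrays, and changes of low signals are understated. They need not be low in every group, and Cyp12d1-d averaged 269 in Rh1 heads.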

Other observations

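Different probe sets of a gene did not always give the same result. The brighter probe set of Cyp9b2 fell in IP against Rh1 heads (-1.16) and rose in Rh1 heads against CS heads (0.50). Its other probe set had 136, 145, 117 and 192 in IP, 131, 122, 155 and 157 in Rh1 heads and 117 to 136 in CS heads, and passed in neither comparison (log2 folds 0.04 and 0.14, limma adjusted p = 0.824 and 0.0922). For Cyp9f2 both probe sets were lower in IP (-0.50 and -0.77) and higher in Rh1 heads than in CS heads (0.47 and 0.21). The brighter of these carries a suffix that marks probes shared with other sequences. The second probe sets of Cyp318a1 and Cyp49a1 were below the filter.

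Of the cyclophilins, Cyp1 did not pass in IP against Rh1 heads (log2 fold -0.45, limma adjusted p = 0.208) and was slightly lower in Rh1 heads than in CS heads (-0.17, 0.0201). Cyp40 was below the filter.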
